A study of Clytia hemisphaerica and Astroides calycularis and Pocillopora acuta with 16 samples.

Results

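The aboral and oral ends of the planula of Astroides calycularis, an orange cup coral of the Mediterranean, were compared by RNA sequencing of cut larvae. A sample belonged to the comparison if its label named an Astroides planula and either the aboral or the oral end. These labels gave 4 of the 16 libraries of the series, 2 of aboral ends (replicates 1 and 2) and 2 of oral ends (replicates 1 and 2). Per the study's methods the larvae were released by wild colonies within days of collection and were bisected by hand with fine scissors, and each library was made from many larval ends pooled together. The labels name no allele, agent or larval age for either group, and the groups differ only in the end sampled. Each library therefore held every cell type of its end, and more cells of a type cannot be told apart from more RNA per cell. P-values measure the spread between these pools. The libraries held between 23836095 and 26980344 counts over gene models, and the 100 most abundant genes took 24.6% to 24.8% of them. Replicates correlated across genes at 0.977 for aboral and 0.973 for oral ends on log2 CPM (counts put on a shared library size and corrected for library composition, but not for transcript length, so levels are compared between ends and not between genes). Same-numbered aboral and oral libraries were read as pairs, since their replicate differences correlated at 0.643 across genes and the methods count both ends together for each biological replicate.

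A planula is the ciliated swimming larva of cnidarians, a slender body with an outer epidermis and an inner gastroderm. It swims with its aboral pole in front, explores and attaches to the substrate with that pole, and later forms the mouth of the polyp at the opposite, oral pole. In many animals Wnt ligands are expressed around the oral or posterior pole and pattern the axis, while secreted Wnt inhibitors, FGF ligands and the transcription factors FoxQ2 and Six3/6 act at the opposite, aboral or anterior pole. In the sea anemone Nematostella these aboral genes form a sensory structure with a tuft of long cilia, the apical organ. The aboral epidermis of planulae is also rich in sensory, neurosecretory and mucus-producing cells that take part in settlement.

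Gene models of Astroides carry an identifier (STRG followed by a number) and no coordinates in the files, so their positions in the genome are not given here. The coding sequences of 4 genes are shown because they were chosen by the study as probe targets for aboral cell types, and they give a view of the transcripts counted here. Each line holds 240 bases, 5′ to 3′, with in-frame cysteine codons (TGC and TGT), and a start codon at the first position, in capitals.
STRG.26130: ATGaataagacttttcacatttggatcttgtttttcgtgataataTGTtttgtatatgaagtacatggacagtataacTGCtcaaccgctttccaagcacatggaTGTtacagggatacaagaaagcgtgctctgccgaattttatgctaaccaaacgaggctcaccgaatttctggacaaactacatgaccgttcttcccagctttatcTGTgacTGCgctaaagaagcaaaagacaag
STRG.10431: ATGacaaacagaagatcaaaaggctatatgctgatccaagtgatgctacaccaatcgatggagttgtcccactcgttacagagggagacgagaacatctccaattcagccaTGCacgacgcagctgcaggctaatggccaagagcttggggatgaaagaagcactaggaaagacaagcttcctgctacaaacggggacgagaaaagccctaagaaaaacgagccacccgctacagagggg
STRG.11468: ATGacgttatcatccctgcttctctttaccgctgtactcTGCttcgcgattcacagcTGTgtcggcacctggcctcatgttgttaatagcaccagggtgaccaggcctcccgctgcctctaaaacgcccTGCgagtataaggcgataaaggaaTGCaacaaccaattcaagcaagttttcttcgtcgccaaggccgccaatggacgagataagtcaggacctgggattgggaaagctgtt
STRG.37621: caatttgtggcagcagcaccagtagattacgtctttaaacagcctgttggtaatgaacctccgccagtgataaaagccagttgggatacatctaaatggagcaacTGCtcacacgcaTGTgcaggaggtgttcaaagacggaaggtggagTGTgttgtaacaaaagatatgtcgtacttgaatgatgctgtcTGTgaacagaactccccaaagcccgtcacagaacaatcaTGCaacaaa
The reading frame had 0 stop codons over the 399 bases held in the study's table for each gene. The stretches of STRG.26130, STRG.10431 and STRG.11468 opened with ATG, and that of STRG.37621 did not. Of 80 codons, cysteine took 5 in STRG.26130, 1 in STRG.10431, 4 in STRG.11468 and 5 in STRG.37621.

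The transcripts of all 4 genes were more abundant in aboral ends, by very unequal amounts. STRG.26130, which encodes von Willebrand factor type A and EGF-like domains and marks gland mucous cells, was read at 894 and 697 CPM in aboral libraries 1 and 2 and at 309 and 207 CPM in oral libraries 1 and 2. STRG.10431, a short gene without an annotated domain and a marker of apical cells, stood at 27.4 and 17.7 CPM aborally and at 0.169 and 0.253 CPM orally. STRG.11468, a secreted protein with cysteines in conserved positions and a marker of the first neurosecretory type, stood at 310 and 352 against 1.65 and 1.92 CPM. The ends did not overlap for any of these 3 genes, as was the case in 44.5% of all genes tested, and the mucous marker was plainly present at both ends, whereas the apical and neurosecretory markers were close to absent orally. ADAMTS-like1 (STRG.37621), a metalloprotease-related matrix protein with thrombospondin repeats and a marker of the second neurosecretory type, was intermediate, at 133 and 163 against 14.4 and 16 CPM. The fitted log2 fold changes (aboral minus oral) were 1.63 ± 0.24 (SE, adjusted p = 0.00995) for STRG.26130 and 6.69 ± 0.51 (adjusted p = 0.00079) for STRG.10431, by edgeR's quasi-likelihood test with Benjamini-Hochberg adjustment. They were 7.53 ± 0.22 (adjusted p = 5.76e-05) for STRG.11468 and 3.28 ± 0.16 (adjusted p = 0.000155) for ADAMTS-like1 in the same test.

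Of 21254 genes tested, 738 (3.47%) were aborally enriched and 747 (3.51%) orally enriched at an adjusted p under 0.05. Together they were 6.99% of the genes tested. Against a difference of 2-fold, 239 genes (1.12%) were higher aborally and 156 (0.734%) orally. Aboral changes were the deeper ones among the called genes, with a median of 3.13-fold against 2.76-fold, and 172 aboral against 82 oral genes differed by over 8-fold. The called aboral genes took 7.54% and 8.35% of all counts in the aboral libraries and 2.36% and 2.46% in the oral libraries. The called oral genes took 4.64% and 4.96% in the oral libraries and 1.73% and 1.71% in the aboral libraries. All 1485 called genes differed in the direction of their call within both same-numbered pairs, which is largely built in, since the calls rest on the same libraries. With the replicate number as a block, 1312 genes (6.17%) were higher aborally and 1299 (6.11%) orally, and past 2-fold 254 genes (1.2%) were oral. Without aboral replicate 2 the counts fell to 289 aboral and 231 oral genes, without aboral replicate 1 to 414 and 302, without oral replicate 1 to 450 and 480, and without oral replicate 2 to 428 and 370.

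**Figure D1:**
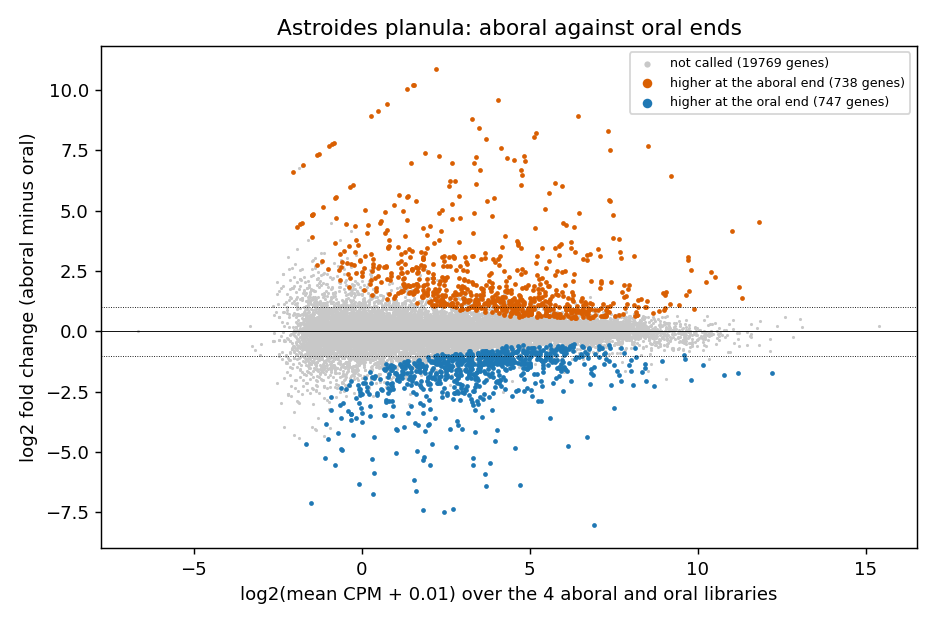
Each point is 1 of 21254 genes, with the log2 of its mean CPM (plus 0.01) over the 4 libraries on the x axis and its fitted log2 fold change (aboral minus oral) on the y axis, and dotted lines at 2-fold. The 738 genes higher aborally (orange) reach farther from 0 than the 747 genes higher orally (blue), and fitted values of genes with 0 counts at an end depend on the prior count of the fit.

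**Figure D2:**
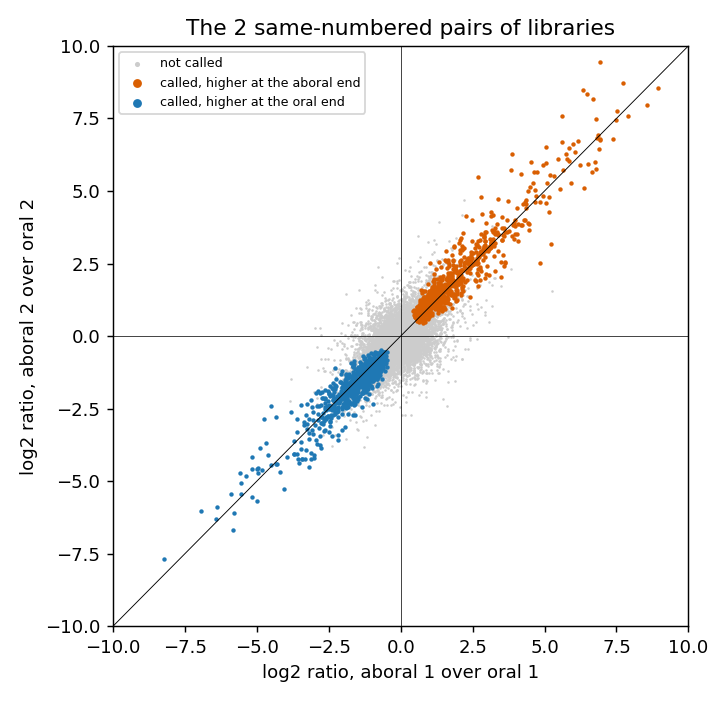
Each point is a gene, with the log2 ratio of aboral 1 over oral 1 on the x axis and of aboral 2 over oral 2 on the y axis. The 738 aboral (orange) and 747 oral (blue) called genes lie in the upper right and lower left quadrants, so each of them has the same sign in both pairs. The calls rest on the same libraries, so this is largely built in.

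Among genes past 2-fold, those with the highest CPM at their higher end encoded mostly secreted and matrix proteins, with no allowance for transcript length. COCA1-like (STRG.30135), a protein with von Willebrand factor type A domains that resembles a collagen alpha chain, stood at 6672 and 7056 CPM against 325 and 276 CPM. The secreted proteins without a named domain STRG.1893 and STRG.33381 followed, STRG.1893 at 3625 and 4227 against 180 and 261 CPM and STRG.33381 at 3642 and 3852 against 1105 and 1011 CPM. Mucin2 (STRG.44173), a gel-forming mucin, the slime-building kind of glycoprotein, stood at 2267 and 2599 against 431 and 581 CPM. STRG.20271, which carries a domain of the VPS13 lipid-transport proteins, followed at 1994 and 2572 against 354 and 475 CPM. The list of oral genes was led by STRG.34730, with a tyrosinase domain, a copper site for phenol oxidation, and an F5/8 type C domain, at 2122 and 2227 CPM aborally and 7635 and 6753 CPM orally. It was followed by STRG.23910, a WSC domain gene, at 840 and 727 against 2845 and 2649 CPM. STRG.25948, with F5/8 type C and thrombospondin domains, stood at 395 and 316 CPM aborally and 1269 and 1568 CPM orally. The related von Willebrand genes STRG.33626 and STRG.33627 were higher orally by 2.25 and 2.05 on the log2 scale. Each of these oral genes kept a substantial aboral level. Of the aboral genes, STRG.33381, Mucin2 and STRG.20271 likewise kept a substantial oral level, while COCA1-like and STRG.1893 were more than 10-fold lower orally.

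Genes of the apical organ and of aboral patterning were higher at the aboral end without exception. All 12 tested genes of a list built from these known aboral genes were called, with a median log2 fold change of 3.50, against a median of 0.004 over all genes tested. Of these 12 genes, 10 were in the study's own list of genes called in these libraries, so their direction is not independent evidence. The 2 others, NKX3 (STRG.11494) and Frizzled (STRG.44114), were also called, but their direction is not independent evidence either. NKX3 is a marker of apical cells, a type the study called aboral with these libraries. The paper lists a Frizzled receptor among the genes enriched aborally in all its species, Astroides included. The ends did not overlap for any of the 12 genes, as in 44.5% of all genes tested and in all 310 list genes with a call.

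Among the transcription factors of this list, FoxQ2-nematostella_a1 (STRG.21723), a forkhead protein of the FoxQ2 class, stood at 106 and 105 CPM in aboral libraries and at 2.11 and 0.94 CPM in oral libraries (6.13). Six3/6 (STRG.44164), the homeodomain protein of the anterior pole of many animals, stood at 222 and 228 against 57.9 and 48.3 CPM. Six3/6 transcripts were thus well represented at both ends, whereas FoxQ2 transcripts were scarce orally. The homeodomain gene ISX-like (STRG.15235) was read at 9.03 and 9.45 CPM aborally and had 0 counts in both oral libraries. Its aboral level was at least 158-fold higher, against a floor of 3 counts over the oral group. TBX5 (STRG.4110), a T-box protein, stood at 106 and 136 against 5.15 and 5.64 CPM (4.48), and NKX3 at 29.4 and 37.9 against 9.46 and 10.8 CPM (1.73).

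The signalling members of the list were secreted factors and receptors. FGFa1 (STRG.34672), a fibroblast growth factor ligand, stood at 49.4 and 42.8 against 4.1 and 3.72 CPM (3.56). SFRP (STRG.18883), a secreted protein that binds Wnt ligands, stood at 217 and 262 against 22.8 and 21.6 CPM (3.43). DKK3 (STRG.12234), a protein with the Dickkopf cysteine-rich region, stood at 26 and 25.6 CPM aborally and 0.211 and 0 CPM orally (7.97). Of these secreted factors, only DKK3 had an oral library without a count. Frizzled, a membrane receptor for Wnt ligands, was low at both ends, at 1.21 and 1.75 against 0.169 and 0.253 CPM (2.77, edgeR adjusted p = 0.0175). Its call ended when any 1 of the 4 libraries was left out, with adjusted p from 0.0551 to 0.148. BMP1-like (STRG.7775), with CUB and thrombospondin domains, stood at 163 and 207 against 21 and 26.2 CPM.

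The enzymes of the list were TauDa (STRG.14077), with the domain of taurine dioxygenases, and POXA-like (STRG.27319), a haem peroxidase of the peroxinectin kind. TauDa stood at 273 and 365 against 1.22 and 0.795 CPM (8.31). POXA-like stood at 31.4 and 61.8 against 4.77 and 10.8 CPM (2.57), and replicate 2 was the higher one at both ends. Its call ended without aboral replicate 2 (adjusted p = 0.114) and without oral replicate 1 (adjusted p = 0.0885, edgeR).

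**Figure D3:**
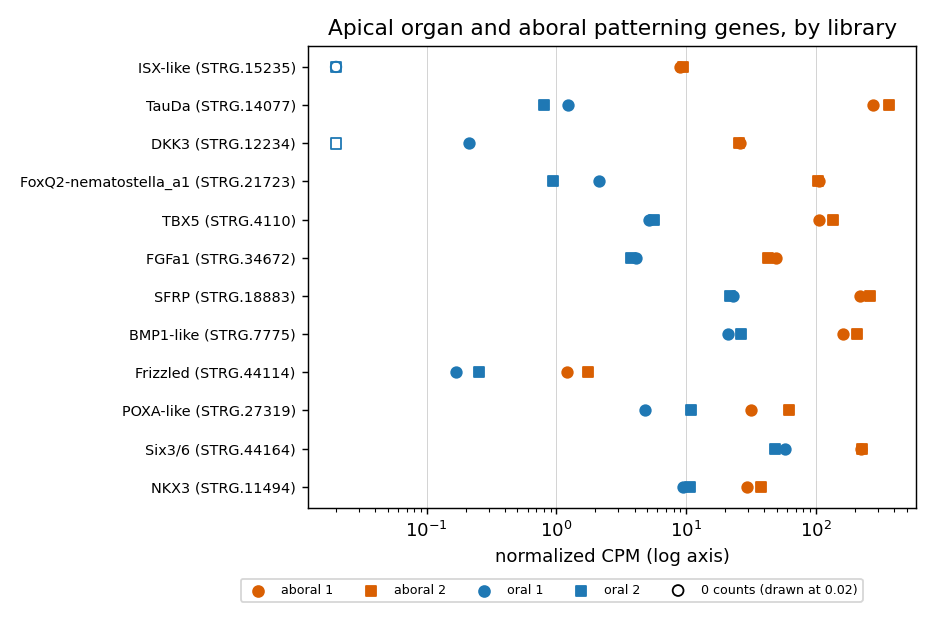
Normalized CPM on a log axis for the 12 apical organ and aboral patterning genes, with 1 point for each library (orange aboral, blue oral, circles replicate 1, squares replicate 2) and open points at 0.02 for 0 counts. The aboral points lie to the right of the oral points in every row, from NKX3 (1.73 on the log2 scale) to ISX-like (0 oral counts).

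Listed transcription factors were divided between the ends. The families here and below hold only genes annotated in the study's tables, and not every gene model with the domain. Of 13 forkhead genes tested, 6 were higher aborally and 7 orally, with no member left without a call, and all 13 were in the study's lists from these libraries. The aboral forkhead genes included STRG.21722, at 65.9 and 79.4 CPM aborally and 0.465 and 0.0361 CPM orally (8.24 ± 0.52, edgeR adjusted p = 0.000368). FoxQ2-nematostella_b (STRG.27038) stood at 50.9 and 57.7 against 0.718 and 0.506 CPM, and FoxQ2a-clytia (STRG.21847) at 59 and 76.3 against 3.46 and 3.51 CPM. The opposite pattern held for STRG.25745, at 0.113 and 0.26 CPM aborally and 6.04 and 7.99 CPM orally (−5.19), and STRG.43256, at 1.1 and 1.08 against 18.2 and 21 CPM (−4.16). The oral forkhead gene with the highest CPM, STRG.42687, carries the HNF3 domains of the FoxA class, endoderm regulators in many animals, and stood at 24.2 and 26.6 against 85.8 and 98.2 CPM (−1.86).

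Homeodomain genes were called mostly at the oral end. Of 31 tested, 19 were higher orally and 9 aborally, with a median of −2.69. Of the 9 members outside the study's lists, 3 were higher aborally, 3 orally and 3 had no call. Several oral members were nearly silent aborally. STRG.26580 had 3 counts over both aboral libraries and stood at 9.84 and 12 CPM orally, a ratio of 196 (95% counting interval 66.6 to 952). STRG.26576 had 2 aboral counts against 6.29 and 7.84 CPM orally, a ratio of 190 (52.3 to 1580). STRG.30757 stood at 0.0378 and 0.112 against 14.1 and 12.2 CPM (−7.36). The oral homeodomain gene of highest CPM was the LIM-homeodomain gene STRG.30225, at 8.54 and 9.41 against 49.9 and 65.9 CPM. Besides ISX-like, Six3/6 and NKX3, the aboral side held STRG.20735, with a KN domain, at 5.59 and 7.74 against 0.465 and 0.217 CPM (4.29). EMX-like (STRG.15918), NKX2-5 (STRG.11493), STRG.20075, STRG.4567 and STRG.10302 were higher aborally by 1.37 to 2.53 on the log2 scale, so most aboral homeodomain genes were also read orally.

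Listed T-box and HMG-box genes were called at both ends and listed bHLH genes at the oral end. All the called ones on these lists came from the study's lists. The lists were matched by domain name, so Sox3 and the achaete-scute genes, which entered as cell type markers, are not counted here. Sox3, called oral and outside the study's lists, is given below with the markers. Of 3 T-box genes, TBX5 and STRG.23287 (4.01 and 7.96 against 0.211 and 0.0723 CPM) were aboral. STRG.3827 was oral, at 0.227 and 0.372 against 25.3 and 26.4 CPM (−6.41 ± 0.26, edgeR adjusted p = 0.000111). Of 3 HMG-box genes, the DNA-bending proteins that include the Sox and Tcf classes, STRG.33347 was aboral at 316 and 348 against 24.2 and 21.8 CPM (3.85). STRG.43395 was oral at 3.36 and 2.79 against 16.6 and 17.4 CPM, and STRG.11919 had 1 aboral count against 2.37 and 2.64 CPM orally. Of 4 bHLH genes, 3 were oral (STRG.13728, STRG.13743 and STRG.13744), with STRG.13728 at 0.378 and 0.446 against 27.2 and 22.8 CPM. The fourth, STRG.8428, stood at 12.9 and 15.1 against 8.02 and 5.28 CPM and was called aboral under the replicate block (adjusted p = 0.0217) and by DESeq2 (adjusted p = 0.0121).

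Of 12 further transcription factors, 2 were aboral and 5 oral. Zic genes, zinc finger regulators of neural development in many animals, split between the ends. STRG.32524 stood at 7.26 and 11.1 against 0.634 and 0.687 CPM (3.79), while STRG.32526 stood at 0.34 and 0.67 against 17.2 and 21 CPM (−5.23). RFX6 (STRG.33567) was aboral at 256 and 299 against 56.7 and 78.3 CPM. Both AP-2 genes, STRG.5549 and STRG.42345, were oral, with STRG.5549 at 78.1 and 82.6 against 303 and 368 CPM (−2.06). The Ets-domain gene STRG.17878 was oral as well, at 2.38 and 2.34 against 16.5 and 16.8 CPM. The 5 members outside the study's lists had no call.

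**Figure D4:**
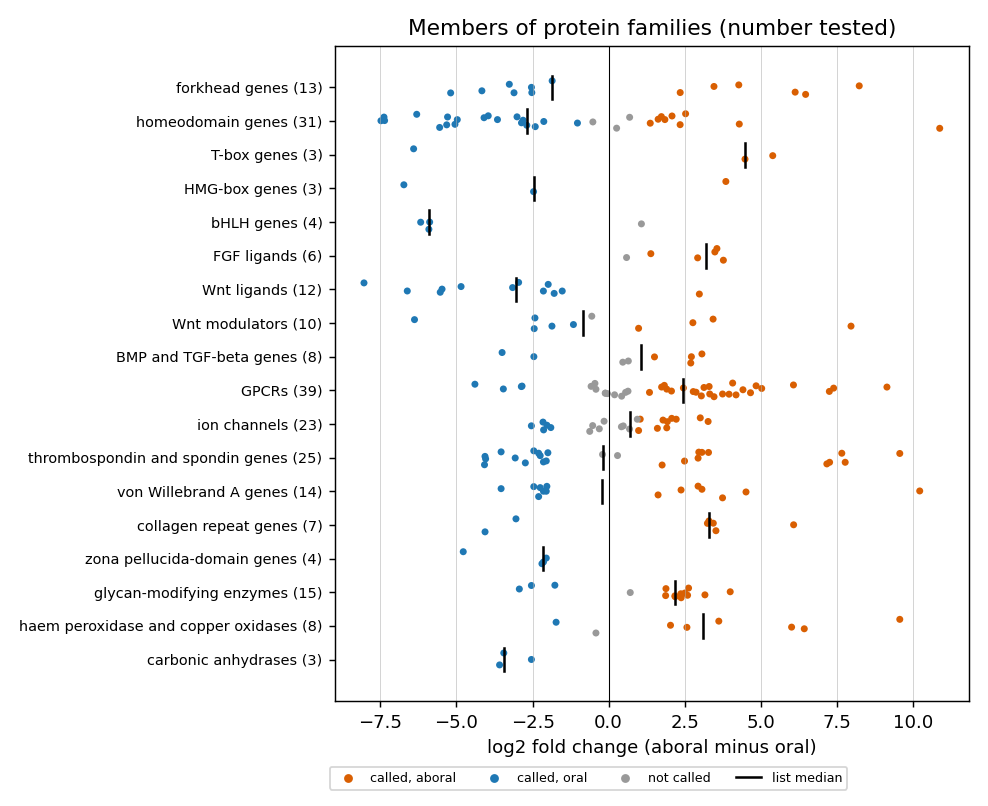
Fitted log2 fold changes (aboral minus oral) of the listed members of 18 protein families, with 1 point for each gene. Points are orange for called aboral, blue for called oral and grey for not called. A black bar marks the median, and the number tested is in brackets. Forkhead genes (6 aboral, 7 oral) and thrombospondin genes (11 and 12) spread to both sides, FGF ligands and GPCRs lie mostly to the right and Wnt ligands (11 of 12 oral) to the left, and points of genes with 0 counts at an end depend on the prior count.

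Ligands of the main axial pathways were expressed at opposite ends. FGF ligands, which signal through receptor tyrosine kinases, were aboral in 5 of 6 genes (median 3.21), and none was oral. The 4 with the widest differences were in the study's lists. FGF-like (STRG.38785) stood at 74.2 and 92.9 against 11.1 and 10.9 CPM (2.93). STRG.34674 and STRG.40675 were low, at most 3.39 CPM in any library, and higher aborally by 3.49 and 3.77. STRG.21780, with FGF and fascin domains, stood at 39.5 and 52.8 against 15.4 and 19.8 CPM, a call that ended without aboral replicate 2 (adjusted p = 0.0604, edgeR). FGF22-like (STRG.11113) had no call, at 46.9 and 37.9 against 33.2 and 23.2 CPM.

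Wnt ligands, the secreted lipid-modified proteins that mark the oral pole of cnidarians, were oral in 11 of 12 genes tested (median −3.06). Over all genes tested 3.51% were called oral. The study's lists from these libraries held 10 of the 12 ligands, so a high share of calls was built in. The 2 others were oral too, and had entered as orthologs of genes called in Clytia or Pocillopora. The summed level of the 12 ligands was 240 and 244 CPM in aboral libraries and 1260 and 1230 CPM in oral libraries. STRG.13311 stood at 0.718 and 1.08 CPM aborally and at 236 and 240 CPM orally (−8.04 ± 0.24, edgeR adjusted p = 5.76e-05). STRG.5836 stood at 0.831 and 0.409 against 32.6 and 22.9 CPM (−5.47), and STRG.9929 at 0.0756 and 0.26 against 7.31 and 8.75 CPM. STRG.35096 had 3 aboral counts and stood at 5.41 and 6.58 CPM orally. The ligand of highest oral CPM, STRG.11669, was less restricted, at 173 and 178 against 527 and 486 CPM (−1.52). It gave most of the aboral counts of the family. STRG.10912 was the ligand of the opposite direction, at 5.44 and 7.18 CPM aborally and 0.718 and 0.867 CPM orally (2.98).

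Modulators of Wnt signalling were found at both ends, with 4 of 10 aboral and 5 oral. The study's lists from these libraries held 5 of the 10, and of the 5 others 2 were aboral and 2 oral. The Dickkopf genes differed most from each other. Against the aboral DKK3 stood STRG.17709, with the same cysteine-rich region, at 0.794 and 0.446 CPM aborally and 49.5 and 54.4 CPM orally (−6.38 ± 0.25, edgeR adjusted p = 0.000111). Frizzled-type domains were likewise split between SFRP and the oral STRG.9905, at 7.37 and 8.15 against 41.7 and 42.8 CPM (−2.45). STRG.27155, with a frizzled and a netrin-like domain, differed by 0.98, at 61.4 and 64.6 against 32.7 and 31 CPM. The oral side also held STRG.17647, a ZNRF3-type ubiquitin ligase, which removes Wnt receptors from the membrane in vertebrates, at 9.68 and 10.8 against 51.7 and 57.9 CPM. STRG.31478, with the domains of Axin, a scaffold of the complex that degrades beta-catenin, stood at 91.5 and 99.1 against 188 and 237 CPM. The WIF-domain gene STRG.36865 stood at 2.04 and 1.49 against 5.87 and 6.98 CPM. Without a library the aboral count fell to 2 in each case, with Frizzled and STRG.27155 lost. The oral count fell to 3 without aboral replicate 1, where STRG.31478 (adjusted p = 0.0548) and STRG.36865 (adjusted p = 0.0504) missed the threshold. STRG.36865 also missed it without aboral replicate 2 (adjusted p = 0.107) and without oral replicate 2 (adjusted p = 0.0707).

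Genes of the BMP and TGF-beta pathway, whose ligands pattern the second body axis in many animals, were called at both ends (4 aboral and 2 oral of 8). The study's lists from these libraries held 5 of the 8, and of the 3 others 1 was aboral and 2 had no call. Secreted BMP antagonists made up most of the calls. Among DAN-domain genes, STRG.9310 stood at 9.56 and 10.4 against 1.44 and 1.63 CPM and STRG.10979 at 4.04 and 5.51 against 0.591 and 0.542 CPM. STRG.19144 was the oral one, at 0.227 and 0.372 against 3.67 and 3.22 CPM (−3.50). The Noggin genes were split in the same way, with STRG.4923 at 10.9 and 10.6 against 1.86 and 1.41 CPM (2.72) and STRG.15310 at 2.95 and 3.2 against 14.9 and 18.9 CPM (−2.46). The ligand GDF11 (STRG.41733) was aboral at 83.1 and 86.3 against 33.7 and 25.9 CPM. The TGF-beta-like ligand STRG.26636 had no call at 18.7 and 18.8 against 14.3 and 9.69 CPM. The receptor AVR2B-like (STRG.37100) had no call either, at 74.1 and 24.9 against 53.1 and 18.7 CPM, and replicate 1 was the higher one at both ends. Among 3 Hedgehog-related genes, the Hint-module gene STRG.22543 was oral at 0.151 and 0.632 against 6.08 and 5.06 CPM (−3.81). STRG.43534, the gene with a Hedgehog signalling domain, had no call at 28.8 and 30.5 against 22.8 and 23.5 CPM. The Patched-type receptor STRG.7495 stood at 40.9 and 52.6 against 23.9 and 26.8 CPM and was called aboral under the replicate block (adjusted p = 0.00394) and by DESeq2 (adjusted p = 0.00722).

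G protein-coupled receptors are the membrane-spanning receptors through which sensory and neural cells read peptides, amines and other small molecules. Of 39 listed and tested, 25 were higher aborally and 4 orally (median 2.46), against 3.47% and 3.51% of all genes tested. The study's lists from these libraries held 27 of the 39, so a high share of calls was built in. Of the 12 others 2 were aboral and 10 had no call. STRG.42583 stood at 48.4 and 65.3 against 0.211 and 0.506 CPM (7.25), and STRG.1702 had the highest CPM of the called receptors, at 111 and 146 against 5.32 and 6.69 CPM (4.41). STRG.16584 had 0 counts in both oral libraries and stood at 2.61 and 2.94 CPM aborally, at least 47.5-fold higher. STRG.28568 had 2 oral counts against 5.86 and 8.82 CPM aborally, a ratio of 189 (95% counting interval 51.9 to 1560). The 4 oral receptors had low counts, with STRG.17595 at 0.983 and 0.967 against 6.59 and 7.48 CPM. STRG.20089 was the most restricted of them, at 0.189 and 0.0372 against 2.37 and 2.57 CPM (−4.39), and STRG.17603 and STRG.18827 were higher orally by 3.46 and 2.87.

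Of 23 ion channels tested, the study's lists from these libraries held 10, and of the 13 others 5 were aboral and 8 had no call. The 23 together were less one-sided than the receptors above, with 10 aboral, 5 oral and a median of 0.69. With the replicate block 13 were aboral and 6 oral, and without aboral replicate 2 the aboral count fell to 5. Transmitter-gated channels of the pentameric class occurred on both sides. STRG.14660 stood at 112 and 138 against 30.5 and 28.9 CPM (2.07), while STRG.37406 stood at 2.31 and 2.49 against 13.4 and 14.5 CPM (−2.54) and STRG.7284 at 2.19 and 1.53 against 8.57 and 7.81 CPM. Ionotropic glutamate receptor-type genes were split in the same manner between STRG.11809 (19.1 and 22.8 against 2.37 and 2.82 CPM) and STRG.32584 (7.41 and 6.18 against 25.7 and 29.7 CPM). The ankyrin-repeat channel gene STRG.36544 stood at 333 and 368 against 82.2 and 104 CPM. A further ankyrin-repeat gene, STRG.36516, was oral at 6.95 and 5.58 against 25.2 and 30.7 CPM. The polycystin gene STRG.10771 (3.27) and the amiloride-sensitive sodium channel gene STRG.39359 (2.22) were aboral, and STRG.24735, a channel gene with a cyclic nucleotide-binding domain, was oral (−1.90).

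Extracellular matrix families came mostly from the study's lists of genes called in these libraries, so a high share of calls was built in and their ends are given as a description. Thrombospondin and spondin genes, whose repeats bind matrix and cell surfaces, were aboral in 11 and oral in 12 of 25 genes. The study's lists held 23 of them, and the 2 others had no call. STRG.10025 stood at 742 and 729 CPM aborally and 3.97 and 3.29 CPM orally (7.66 ± 0.19, edgeR adjusted p = 5.76e-05). SPON1 (STRG.4000), a spondin, stood at 35.4 and 44.4 against 0.211 and 0.325 CPM (7.17). STRG.18603, with thrombospondin and tyrosinase domains, had 2 oral counts against 29.3 and 37.2 CPM, a ratio of 853 (95% counting interval 236 to 7050). On the oral side, STRG.8566 stood at 1.74 and 1.9 against 21.1 and 40.4 CPM (−4.08), STRG.31483 at 0.567 and 0.818 against 8.45 and 14.9 CPM, and the ADAMTS-type STRG.1679 at 0.945 and 0.856 against 12.2 and 17.6 CPM. Oral replicate 2 was the higher one in these 3 genes.

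Von Willebrand factor type A genes were aboral in 7 and oral in 7 of 14, of which 13 were in the study's lists. STRG.38453 had 0 oral counts and stood at 7.03 and 4.69 CPM aborally, at least 100-fold higher, and STRG.466 was the widest oral one, at 2.53 and 1.26 against 20.9 and 23.2 CPM (−3.53). Genes with collagen triple helix or fibrillar collagen domains were aboral in 5 and oral in 2 of 7. STRG.8480 stood at 298 and 449 against 38.9 and 37.1 CPM, and STRG.33560 was oral at 0.34 and 0.112 against 4.14 and 3.54 CPM (−4.06). Zona pellucida-domain genes, which form filaments on cell surfaces, were oral in all 4 genes. STRG.576 stood at 0.68 and 0.298 against 12.5 and 14.5 CPM (−4.78), and STRG.21703 at 17.2 and 20.8 against 73.3 and 94.5 CPM. F5/8 type C genes were aboral in 6 and oral in 3 of 10, and in 3 aborally without aboral replicate 2. STRG.11002 had 3 oral counts against 16.4 and 27.9 CPM aborally. All zona pellucida and collagen genes came from the study's lists.

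Secreted proteins without a domain in the study's list of genes called here numbered 49, of which 39 were aboral and 10 oral. The Dickkopf gene STRG.17709 counted among the oral ones, since its domain was given in another of the study's tables. The study had taken all 49 from these libraries, so only the split between the ends is described here. STRG.4909 stood at 36.2 and 33.6 against 0.253 and 0.108 CPM (7.59), STRG.11433 at 20.7 and 19.5 against 0.211 and 0.108 CPM (6.96), and STRG.7992 at 16.7 and 22.5 CPM against 2 counts over both oral libraries. On the oral side, STRG.11384 stood at 0.454 and 0.335 against 6.88 and 6.9 CPM (−4.11). Glycan-modifying enzymes, which build and sulfate the sugar chains of mucins and matrix, were aboral in 11 and oral in 3 of 15, and in 7 aborally without aboral replicate 2. Of the 5 outside the study's lists, 4 were aboral. These 5 are gland mucous cell markers, of a cell type the study called aboral with these libraries, so their direction is not independent evidence. A sulfotransferase, STRG.15856, stood at 96.9 and 115 against 13 and 10.6 CPM (3.17), and B4GALT5 (STRG.27048), a galactosyltransferase, at 8.2 and 6.21 against 0.422 and 0.47 CPM. STRG.24308, with the domain of chondroitin synthesis enzymes, was oral at 2.42 and 2.08 against 18.3 and 16.2 CPM (−2.93). A further gene with the cysteine-rich domains of mucins, STRG.44128, picked after its values were seen for comparison with Mucin2, was oral at 90.9 and 100 against 348 and 542 CPM.

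Lectin and pentaxin genes, which bind sugars and are used in defence in many animals, were aboral in 6 and oral in 3 of 11. The study's lists from these libraries held 7 of them, and of the 4 others 1 was aboral and 1 oral. The pentaxins STRG.13484 (29.2 and 30.7 against 0.718 and 0.578 CPM) and STRG.13498 (20.5 and 18.9 against 0.634 and 0.687 CPM) were aboral, and the pentaxin STRG.17905 was oral at 2.95 and 3.05 against 20.7 and 21.8 CPM. Metalloproteases were aboral in 5 and oral in 2 of 11, while 6.99% of all genes tested were called in either direction. The study's lists from these libraries held 7 of the 11, and the 4 others had no call. ADAMTS-like2 (STRG.14960) stood at 341 and 409 against 100 and 122 CPM, and the astacin gene STRG.37116, with the widest aboral difference, at 3.21 and 3.35 against 0.253 and 0.217 CPM (3.78). The matrixin STRG.19469, which also carries a ShK domain, was oral at 3.48 and 2.57 against 19.4 and 20.6 CPM. ShK-like (STRG.14007), with a domain named after a sea anemone toxin, was aboral at 310 and 347 against 9.97 and 5.75 CPM (5.39).

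Of 8 haem peroxidase and copper oxidase genes, 6 were aboral and STRG.34730 was oral, as given above, and the study's lists from these libraries held 7 of the 8. With STRG.34730 the list summed to 5660 and 5590 CPM aborally and 8140 and 7350 CPM orally. The peroxidase STRG.6135 stood at 1429 and 892 CPM aborally and 13.1 and 13.8 CPM orally (6.43 ± 0.38, edgeR adjusted p = 0.000321), with replicate 1 the higher one aborally. STRG.16167, a further peroxidase, was well represented at both ends, at 1817 and 2057 against 431 and 515 CPM. The multicopper oxidase STRG.40383 stood at 89.7 and 155 against 1.48 and 2.28 CPM (6.01), while the related STRG.31837 stood at 32.5 and 38.7 against 45.2 and 49.8 CPM and was called oral under the replicate block alone (adjusted p = 0.0425). Flavin and cytochrome P450 enzymes were aboral in 6 and oral in 1 of 9, all 7 of them from the study's lists, and the 2 others had no call. The P450 gene STRG.21862 stood at 40.2 and 51.6 against 0.253 and 0.398 CPM (7.10). The P450 gene STRG.5278 was the oral one, at 0.265 and 0.112 against 2.32 and 1.99 CPM, a call that ended without aboral replicate 2 (log2 fold change −3.04).

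The remaining enzyme groups were small. The carbonic anhydrases, deiodinases and 6-pyruvoyl tetrahydropterin synthase genes all entered from the study's lists of genes called in these libraries, so that only the end of each is described. All 3 carbonic anhydrases, which interconvert carbon dioxide and bicarbonate, were oral (−3.58 to −2.54), with STRG.13174 at 2.53 and 1.38 against 9.93 and 12.8 CPM. Both iodothyronine deiodinases, enzymes that remove iodine from thyroid hormones in vertebrates, were aboral. STRG.9820 stood at 4.61 and 4.35 against 0.169 and 0.108 CPM (4.98) and STRG.17681 at 5.06 and 5.39 against 0.676 and 0.976 CPM. The genes with a 6-pyruvoyl tetrahydropterin synthase domain, an enzyme of pterin cofactor synthesis, lay at opposite ends, with STRG.21126 at 42.7 and 64 against 0.802 and 0.253 CPM (6.69) and STRG.21127 at 1.59 and 1.49 against 10.8 and 6.87 CPM (−2.52). Taurine-related domains were divided as well. Beside the aboral TauDa, the TauD-domain gene STRG.25952 was oral at 20.1 and 18.6 against 106 and 109 CPM (−2.47). The TauD-domain gene STRG.24127 stood at 37.6 and 30.7 against 49.1 and 45.6 CPM and had an oral call under the replicate block alone (adjusted p = 0.0491). The sulfite exporter-type TauE genes STRG.35235 (102 and 128 against 30.1 and 43.6 CPM) and STRG.35233 (7.75 and 7.63 against 28.5 and 33.6 CPM) were called in opposite directions.

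Markers of cell types were read at both ends. The apical, gland mucous, neurosecretory and GLWamide neuron lists came from cell types that the study had called aboral with these libraries. Their direction is therefore not independent evidence and is no check of the labels. GLWamide neurons differed from the other types. The paper's Fisher test found no significant enrichment of aboral genes in them, and the paper also placed them by antibody staining. Of the 18 members of the GLWamide neuron list, 1 was in the study's lists of called genes. Of 28 apical cell markers 25 were aboral and none oral (median 4.38), and their summed level was 4000 and 5090 CPM in aboral and 826 and 921 CPM in oral libraries. Of the 6 outside the study's lists of called genes 3 were aboral. A gene without annotation, STRG.22094, led this list after ISX-like, at 144 and 204 against 0.211 and 0.47 CPM (8.94). Gland mucous markers were aboral in 31 of 38 (median 2.18), including 14 of the 21 outside the study's lists, and summed to 11800 and 12300 against 1730 and 1740 CPM.

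Markers of the first neurosecretory type had a higher median than the apical and gland mucous lists. Of 18 such markers 16 were aboral, with a median of 5.76, or 5.32 with genes of 0 oral counts at their bound. They summed to 885 and 853 CPM aborally and to 100 and 65.8 CPM orally. Short-CCdomain (STRG.1618) stood at 68.9 and 69.7 against 0.211 and 0.289 CPM (8.07), and STRG.12339 had 0 oral counts and an aboral level at least 41.1-fold higher. Markers of the second type were aboral in 5 of 7 (median 3.28) and summed to 961 and 1110 against 209 and 249 CPM. GLWamide neuron markers, of cells that release a metamorphosis-inducing peptide, were aboral in 4 of 17, or 2 without aboral replicate 2, and had a median of 0.11. Short-tm (STRG.18164) carried most of their aboral excess, at 461 and 178 against 9.76 and 5.17 CPM (5.42), and replicate 1 was the higher one at both ends. The calls of TRP-like (STRG.2920, 1.93) and GABRB1-like (STRG.2823, 1.60) were those lost without aboral replicate 2, where the values were 1.83 and 1.36. Both are named for the channels they resemble, and what opens them was not tested.

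Markers of broader cell classes were also read. Among 6 neural markers, the neuropeptide precursor RFamide (STRG.11240) was aboral, at 191 and 207 against 116 and 97.1 CPM (0.90). GVWamide (STRG.21557) was oral, at 5.44 and 5.8 against 17.1 and 15.7 CPM (−1.55). The precursor GLWamide (STRG.15971) had no call, at 152 and 88 against 145 and 67.8 CPM, with replicate 1 the higher one at both ends and pair differences of 0.07 and 0.38 on the log2 scale. ELAV (STRG.3504), an RNA-binding protein of neurons, stood at 204 and 228 against 155 and 162 CPM and was called aboral under the replicate block (adjusted p = 0.0298) and by DESeq2 (adjusted p = 0.047). Of 3 stinging cell markers 1 was called, Nematogalectin-like (STRG.22007), aboral at 38.8 and 36.6 against 24.5 and 19.8 CPM. The minicollagen Ncol3 (STRG.26600), a capsule protein of stinging cells, had no call at 204 and 232 against 159 and 147 CPM (0.51). The third marker had no call either (0.61). All 3 were higher aborally at an unadjusted edgeR p under 0.05. Both digestive filament markers were oral, OIT3-like12 (STRG.21702) at 14.9 and 16.6 against 55.4 and 74.7 CPM and Nkx2-8-like (STRG.10304) at 5.78 and 3.94 against 16.6 and 12 CPM. The latter call ended without aboral replicate 2 (adjusted p = 0.143) and without oral replicate 1 (adjusted p = 0.0906). Sox3 (STRG.11680), an epidermal marker, was oral at 215 and 214 against 361 and 339 CPM (−0.71). Of the other epidermal markers, STRG.38537 had no call at 577 and 646 against 541 and 457 CPM (0.29), and STRG.11745 had an oral call under the replicate block (adjusted p = 0.0266) and without oral replicate 2 (adjusted p = 0.0496) at 192 and 140 against 370 and 206 CPM. The calls of Sox3, RFamide and the stinging cell gene Nematogalectin-like (STRG.22007, 0.77) all ended without aboral replicate 1, with adjusted p of 0.139, 0.0769 and 0.182, and without aboral replicate 2, with adjusted p of 0.161, 0.155 and 0.192. They also ended without oral replicate 2, with adjusted p of 0.0517, 0.0855 and 0.142, and that of Sox3 without oral replicate 1 (adjusted p = 0.0672). None of the 3 gastroderm, 2 secretory and 2 specialized epidermis markers was called in either direction by edgeR without the block, with 1 gastroderm and 1 specialized epidermis marker lower at an unadjusted p under 0.05. DESeq2 called 0 of them, and the replicate block 1 specialized epidermis marker, oral. Gastroderm markers summed to 1130 and 1020 CPM in aboral and 1340 and 1410 CPM in oral libraries; both ends thus held transcripts of the inner layer.

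**Figure D5:**
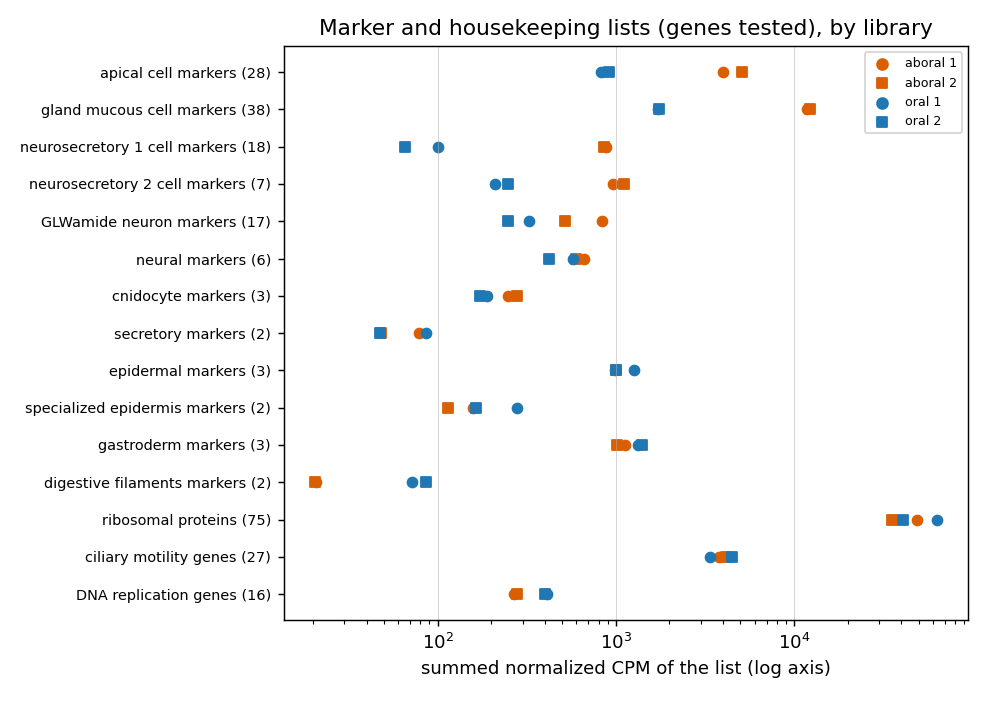
Summed normalized CPM of each marker or housekeeping list on a log axis, with 1 point for each library (orange aboral, blue oral, circles replicate 1, squares replicate 2) and the number of genes tested in brackets. Apical, gland mucous and neurosecretory lists stand apart by end (4000 and 5090 against 826 and 921 CPM for apical markers), digestive filament markers lie to the oral side, and the ciliary list overlaps between ends.

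Further lists, named housekeeping here, held ciliary, ribosomal protein and DNA replication genes. Their members were Astroides orthologs of Clytia single-cell cluster markers and are not taken as neutral controls. None of 27 ciliary genes was called by edgeR (median 0.01, 1 higher and 1 lower at an unadjusted p under 0.05), and their summed level overlapped between ends, at 3780 and 4140 CPM aborally and 3380 and 4500 CPM orally. By DESeq2 and with the replicate block 1 of them was oral. None of 75 ribosomal protein genes was called by edgeR (1 at an unadjusted p under 0.05, oral), but 70 of them were lower aborally, with a median of −0.30. Their summed level was 48800 and 35400 CPM in aboral and 63600 and 40600 CPM in oral libraries, with replicate 1 the higher one at both ends. The ends overlapped across replicates, but within each same-numbered pair the aboral sum was the lower one. DESeq2 called 1 of them oral, and the replicate block 2. All 16 DNA replication genes had negative values, with a median of −0.44 and summed levels of 270 and 280 against 412 and 401 CPM. Of these, 2 were called oral. PCNA (STRG.25406), the sliding clamp of DNA polymerase, stood at 27.9 and 20.8 against 73.8 and 43.9 CPM (−1.27, edgeR adjusted p = 0.0421). The MCM helicase gene STRG.41067 stood at 18.4 and 15.9 against 31.5 and 30.1 CPM (−0.85, adjusted p = 0.0233). The count rose to 4 with the replicate block and by DESeq2, and fell to 0 without aboral replicate 1, aboral replicate 2 or oral replicate 1 and to 1 without oral replicate 2.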

How the data were processed

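Total RNA of pooled aboral and oral ends of Astroides planulae was sequenced as paired-end DNBseq libraries. The files deposited held unnormalized counts for each gene model, which the authors made with STAR in its gene count mode on their own Astroides genome, with gene models built by StringTie from larval reads. The strand setting was not given in the sources used here, so overlapping or antisense genes could share reads, and paralogs with near-identical sequence could share or lose them. Gene names, protein domains, marker lists and coding sequences came from the study's supplementary tables, matched on the identifier, and no value was taken from them. The tables of the authors' own comparisons in these libraries (genes called, fold changes and p-values) were used for gene identity only, to say which members the study had chosen on the same libraries.

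Counts of all 6 Astroides libraries (aboral, oral and uncut, the last for the spread only) were fitted in R 4.3.3 with edgeR 4.0.16. Of 28330 genes, filterByExpr kept 21254 (75%). Libraries were scaled by TMM, and glmQLFit (legacy mode) and glmQLFTest gave two-sided p-values with 3 residual degrees of freedom, adjusted by the Benjamini-Hochberg method over all genes tested. A gene was called at an adjusted p under 0.05, and glmTreat tested against 2-fold. CPM values were scaled by TMM. The SE was the absolute log2 fold change divided by the square root of F. Where an end had 0 counts, the fold is a lower bound from 3 counts over the 2 libraries, and with 1 to 3 counts a ratio with an exact 95% interval is given, which covers counting error only. Same-numbered libraries were read as pairs from the methods, with replicate differences of the ends correlating at 0.643. The main fit held no replicate block, since the study's methods describe a batch term for Pocillopora and none for Astroides. With the block 12.3% of genes tested were called, so some genes without a call in the main fit had one there. The alternatives were RLE scaling, DESeq2 1.42.0, no low-count filter, the aboral and oral libraries alone, a replicate block and leaving out each library.

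Lists (45, with 509 members, 501 of them tested, 7 below the low-count filter and 1 not matched to a row of the files) were protein families matched by domain name and the study's marker lists. Domain names were searched only among genes annotated in the study's tables, not over all gene models. These were genes called in these libraries, single-cell markers, orthologs of genes called in Clytia or Pocillopora, and orthologs of Clytia cluster markers. Members and lists were chosen with earlier results of these data known. In a list of up to 8 tested genes every member could be named, and in longer lists the 4 called genes with the largest fold change and the 1 with the highest mean CPM in each direction, and members called against the majority. The probe genes and the 5 genes of highest CPM past 2-fold in each direction were named too.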

Additional observations from a re-analysis of the deposited data

How the results depend on the processing

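With the replicate number as a block, in which same-numbered libraries are pairs, 1312 genes were aborally and 1299 orally enriched, and past 2-fold the oral genes numbered 254. All 1485 calls were kept under this block. Under RLE scaling, DESeq2, no low-count filter and the aboral and oral libraries alone the counts stayed within 1.5 times the reported ones, and 1466, 1474, 1436 and 1110 of the 1485 calls were kept. Leaving out 1 library gave 289 to 450 aboral and 231 to 480 oral genes, and past 2-fold 154 to 183 aboral and 83 to 119 oral genes. Between 516 and 869 calls were then kept, with the lowest number without aboral replicate 2, and the cause was not tested. A group left with 1 library is assumed in these fits to vary like the others.

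Of 165 genes named, 152 were called, and 137 of these kept their call under every alternative. Leaving out 1 library ended the call of 15, each given beside its values, and with the aboral and oral libraries alone the calls of Sox3 (STRG.11680), Nematogalectin-like (STRG.22007) and PCNA (STRG.25406) ended. The replicate block ended none and added 6. Values of uncalled genes turned in direction for GLWamide (STRG.15971), to −0.28 without aboral replicate 1 and −0.27 without oral replicate 2, against 0.80 without oral replicate 1, and for AVR2B-like (STRG.37100), to −0.53 and −0.10 against 1.38 in the same order. These fits break the pairs. Within the 2 pairs the values were 0.07 and 0.38 for GLWamide and 0.48 and 0.41 for AVR2B-like, all aboral, and with the replicate block 0.20 and 0.45.

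Each end was measured in 2 pools, and a gene without a call is not shown to be equal at both ends. The position of the cut along the axis was set by hand, and its part in the results was not tested.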
